A study of Nicotiana benthamiana with 6 samples.

Results

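Aquaporins and mineral ion transporters of *Nicotiana benthamiana* leaves were examined as 319 unigenes out of the 167935 in the deposited transcriptome. A unigene is one non-redundant transcript of the de novo assembly. The members were taken by the deposited annotation: the best UniProt match had to carry one of 11 names (aquaporin, potassium channel, potassium transporter, phosphate transporter, sulfate transporter, zinc transporter, metal transporter, cation/H(+) antiporter, plasma membrane ATPase, S-type anion channel or aluminum-activated malate transporter), and the NR protein match had to come from *Nicotiana* (309 members) or only from *Solanum* (10 members). Another 22 unigenes with such a name had their NR match elsewhere and were left out. By its wording the rule also took 6 glycerol-3-phosphate transporters and a potassium channel beta subunit. The gene names below are those of the best UniProt match, mostly an *Arabidopsis* protein, and the roles given are known from the species named, not measured here. The assembly has no genome positions.

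These proteins set the water and ion balance of plant cells. Plasma membrane ATPases pump protons out of the cell, and the voltage and proton gradient they build drives uptake of potassium, phosphate and sulfate through channels and proton-coupled carriers. Aquaporins are membrane channels for water and for small solutes such as boric acid. In leaves, potassium channels, S-type anion channels and malate transporters of guard cells move the ions that open and close stomata.

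The tested leaves had been infiltrated with *Agrobacterium tumefaciens* LBA4404 carrying pCAMBIA2200::*MaWRKY45*, in which the CaMV 35S promoter drives the banana WRKY transcription factor (overexpression, 3 libraries). The mock leaves had received the same strain with the empty pCAMBIA2200 vector (3 libraries), so both groups carry the response to infiltration and to the bacterium. All plants were wild type and 5 weeks old, the suspensions had an OD600 of 1.0, leaves were taken on day 3, and each library pooled RNA of 3 plants. Expression was transient, in whole leaves of mixed cell types, and was compared at a single time.

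Total counts lay between 12590186 and 13465854 in the overexpression libraries and between 12031310 and 14285138 in the mock libraries. Members held 0.718 to 0.763% of the counts in overexpression libraries and 0.622 to 0.814% in mock libraries. The unigene matching a banana WRKY protein (c147189_g1_i1) had 248, 332 and 267 TMM CPM (counts scaled to library size with TMM factors) in overexpression replicates 1, 2 and 3, against 118, 58.2 and 131 TMM CPM in mock replicates 1, 2 and 3. It was higher in overexpression by 1.46 on the log2 scale (edgeR, adjusted p = 0.0181), but counts of it were present in every mock library, and whether those came from the transgene or from a similar transcript of the plant was not tested. A further 2 unigenes with such a match had at most 8 counts in any library. Leaf identity was checked with 34 unigenes for chlorophyll a-b binding proteins and the small subunit of Rubisco, each of which had counts. Their summed level was 10300, 7017 and 5837 TMM CPM in overexpression and 16290, 28980 and 9101 TMM CPM in mock libraries. Of 23 tested, 1 was up-regulated and 5 were down-regulated (26.1%, against 4.59% of all tested unigenes). Of the 23, 12 were lower in overexpression without overlap, where 11.5% of all tested unigenes were, and the median log2 fold change was −1.43. The sums overlapped between the groups, and the part of these markers in the transporter values below was not tested. Mock replicate 2 stood apart in this sum, and it also stood apart in the aquaporins described below.

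Of the 319 members, 314 had at least 1 count and 152 had enough counts to enter the test, the quasi-likelihood F test of edgeR. A member was called up-regulated or down-regulated at a Benjamini-Hochberg adjusted p under 0.05, taken over all 37201 tested unigenes, and a fold change of at least 2. By this rule 6 members were up-regulated and 8 were down-regulated, 9.21% of those tested, against 4.59% of all tested unigenes. Up-regulated members made up 3.95%, against 1.92% of all tested unigenes, and down-regulated members 5.26%, against 2.67%. The 3 overexpression libraries lay above the 3 mock libraries for 19 members (12.5%, against 11.3% of all tested unigenes) and below them for 25 members (16.4%, against 11.5%), and in either direction this held for 22.9% of all tested unigenes. Without the fold of 2, 7 members were higher and 9 lower, where 5.11% of all tested unigenes passed in either direction. The median log2 fold change was −0.13 over the tested members and −0.01 over all tested unigenes. Scaling by library size alone moved the median of all unigenes to 0.11, and the calls to 8 up-regulated and 5 down-regulated members. With 3 libraries in each group the smallest p of an exact permutation test is 0.10, so for single members the groups are described as overlapping or not.

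**Figure D1:**
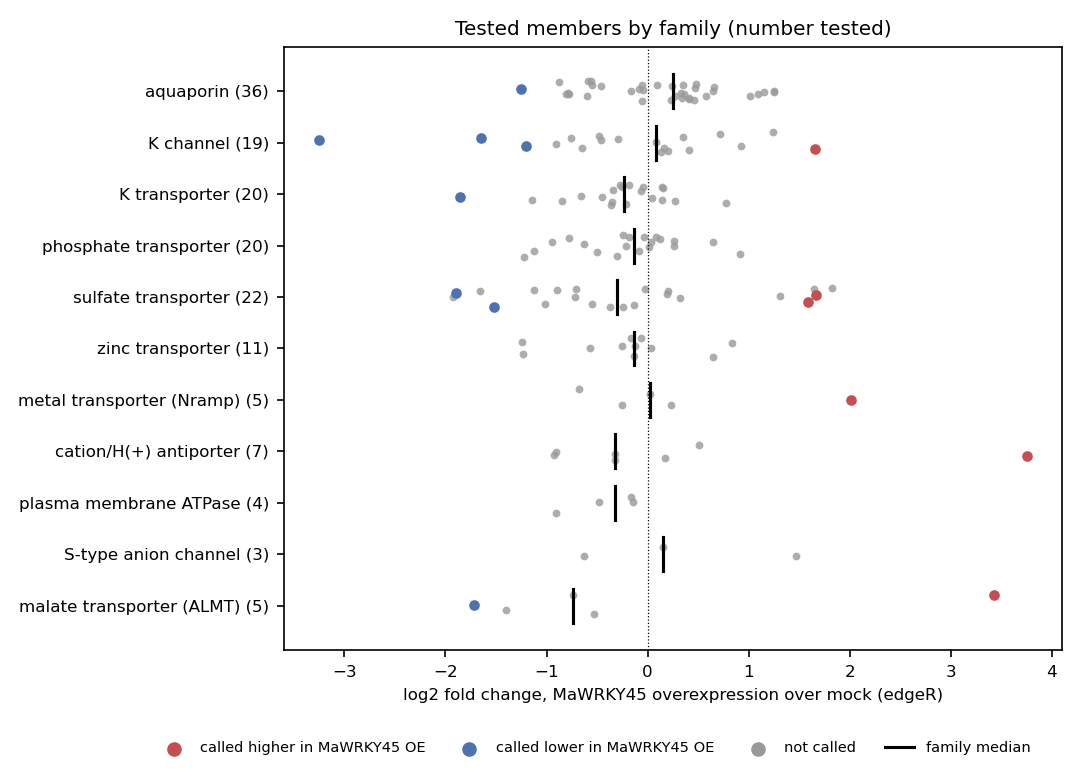
Log2 fold change (overexpression over mock, horizontal axis) of the 152 tested members, 1 point each, by family, with the number tested in brackets. Red points mark the 6 members called higher in overexpression and blue points the 8 called lower, grey points were not called, and black bars are family medians. Called members lie on both sides of 0 in the potassium channels, the sulfate transporters and the malate transporters.

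The calls fell in 7 of the 11 families: up- and down-regulated members together in the potassium channels (1 and 3 of 19 tested), the sulfate transporters (2 and 2 of 22) and the malate transporters (1 and 1 of 5), down-regulated members alone in the aquaporins (1 of 36) and the potassium transporters (1 of 20), and up-regulated members alone in the cation/H(+) antiporters (1 of 7) and the metal transporters (1 of 5). No phosphate transporter (20 tested), zinc transporter (11), plasma membrane ATPase (4) or S-type anion channel (3) was called by edgeR, where 3, 4, 2 and 2 of them had an unadjusted p under 0.05. By the same F test 18.9% of all tested unigenes had an unadjusted p under 0.05, the share to set beside such counts here and below. In these 4 families DESeq2 called 0, 2, 1 and 0 members and limma-voom 0, 1, 0 and 0. Of the 14 calls, 10 were of members past the count filter in both groups. The other 4 passed it in the group where they were high and in no library of the other group, so that a difference was built into their being tested.

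**Figure D2:**
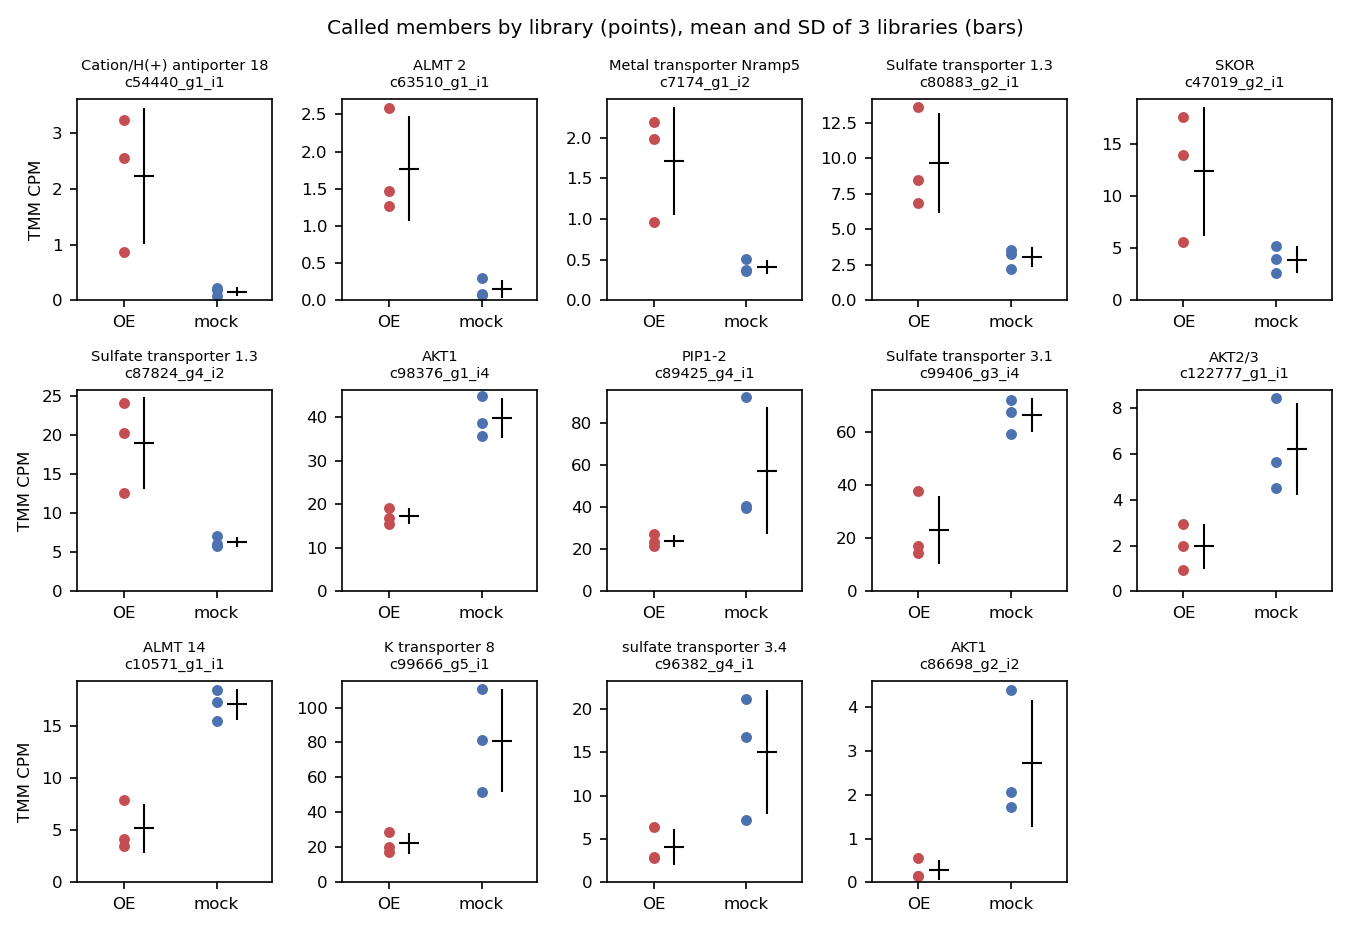
TMM CPM of the 14 called members, ordered by log2 fold change, with 1 point for each library and the mean with its SD (n = 3) beside the points, overexpression (OE) on the left and mock on the right. The points of both groups do not overlap in any panel, and the level axes differ between panels.

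Levels between members were compared in the FPKM values of the authors, which are scaled by transcript length. Over the 6 libraries the mean level of the tested members ran between 0.628 and 516 FPKM with a median of 9.64 FPKM, and 9 members exceeded 100 FPKM. The most abundant were the plasma membrane aquaporin pTOM75 (c91698_g1_i2) with 580 ± 101 FPKM in overexpression and 453 ± 340 FPKM in mock libraries, and the plasma membrane aquaporin PIP2-2 (c86068_g1_i1) with 475 ± 115 FPKM in overexpression and 318 ± 205 FPKM in mock libraries (SD, n = 3 each). Next came the phosphate uptake carrier PHT1-4 (c95473_g1_i2) with 427 ± 61.1 FPKM in overexpression and 328 ± 54.4 FPKM in mock libraries, and the proton pump PMA4 (c99257_g1_i1) with 318 ± 20.6 FPKM in overexpression and 323 ± 74.8 FPKM in mock libraries. None of these 4 was called. The called members had lower levels, and PIP1-2 (c89425_g4_i1) was the most abundant of them with 34.1 ± 3.02 FPKM in overexpression and 75.2 ± 39.5 FPKM in mock libraries.

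Inward potassium channels of the AKT and KAT type held 3 of the 8 down-regulated members and none of the 6 up-regulated ones. In *Arabidopsis*, AKT1 takes up potassium in root and leaf cells, AKT2/3 is a channel of the phloem, and KAT1 carries potassium into opening guard cells. Of the 20 members of this type 9 were tested, 7 of them had a negative log2 fold change, and 3 were called down-regulated, 1 of which passed the count filter through the mock libraries alone. Over all tested unigenes 2.67% were down-regulated and 48.9% had a positive log2 fold change. Their summed level over all 20 members was 92.4, 97.3 and 130 TMM CPM in overexpression and 173, 165 and 161 TMM CPM in mock libraries, without overlap. The AKT1 unigene c98376_g1_i4 had 15.5, 16.9 and 19.2 TMM CPM in overexpression and 38.7, 35.7 and 44.8 TMM CPM in mock libraries. All 3 overexpression libraries lay below all 3 mock libraries, and the log2 fold change was −1.21 ± 0.18 (SE; edgeR, adjusted p = 0.00592). This call held without each library in turn.

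A second AKT1 unigene, c86698_g2_i2, had 0.555, 0.147 and 0.148 TMM CPM in overexpression and 4.38, 1.71 and 2.07 TMM CPM in mock libraries. It was almost absent from overexpressing leaves and did not overlap (log2 fold change −3.25 ± 0.61; edgeR, adjusted p = 0.0153), but it passed the count filter through the mock libraries alone. Its call was lost without overexpression replicate 2 (adjusted p = 0.0685) or mock replicate 1 (adjusted p = 0.0803). AKT2/3 (c122777_g1_i1) had 0.951, 1.98 and 2.95 TMM CPM in overexpression and 4.53, 8.42 and 5.66 TMM CPM in mock libraries. It was lower in each overexpression library than in any mock library, with a log2 fold change of −1.65 ± 0.42 (edgeR, adjusted p = 0.0494). That value is close to the threshold, and the call was kept only without overexpression replicate 3, with adjusted p between 0.083 and 0.149 without each of the other 5 libraries. The more abundant AKT2/3 unigene, c96102_g2_i1, had 29.95, 30.2 and 50.7 TMM CPM in overexpression and 50.3, 46.8 and 39.1 TMM CPM in mock libraries, which overlap.

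KAT1 (c99010_g2_i3) had 25.5, 28.6 and 38.4 TMM CPM in overexpression and 63.0, 52.1 and 58.1 TMM CPM in mock libraries. Its groups did not overlap and its adjusted p was 0.0277 in edgeR, but the log2 fold change of −0.90 ± 0.20 missed the fold of 2. Without overexpression replicate 3 it reached −1.09 and was called. The KAT3 unigene c94056_g8_i2, a subunit that modulates inward channels in *Arabidopsis*, pointed the other way with 12.2, 12.3 and 8.11 TMM CPM in overexpression and 3.65, 8.86 and 4.58 TMM CPM in mock libraries, which overlap (edgeR, adjusted p = 0.166). Without mock replicate 2 it was called, with a log2 fold change of 1.40. Markers of guard cells and phloem were read beside these channels. Among 34 guard cell unigenes (FAMA, HT1, TOO MANY MOUTHS and epidermal patterning factors, while none matched MYB60) 20 were tested. Of these, 0 were up-regulated and 1 was down-regulated (5%, against 4.59% of all tested unigenes). The 34 summed to 483 to 514 TMM CPM in overexpression and 446 to 527 TMM CPM in mock libraries. Most of that sum came from unigenes named HT1, and the 1 called, an epidermal patterning factor, reached at most 3.72 TMM CPM. The study lists MYB60 and an HT1-like kinase among its down-regulated genes, and neither of those unigenes is in this list. Among 21 phloem unigenes 14 were tested and edgeR called 0, and their sum was 679 to 985 TMM CPM in overexpression and 899 to 1356 TMM CPM in mock libraries. Most of that sum was 1 sucrose transport protein (c95034_g1_i1), with 433, 463 and 712 TMM CPM in overexpression and 906, 1201 and 691 TMM CPM in mock libraries. All 3 tested SIEVE ELEMENT OCCLUSION unigenes had a positive log2 fold change (median 1.31). Negative were 3 of 5 tested sucrose transport proteins (median −0.23) and 4 of 6 tested PHLOEM PROTEIN 2 unigenes (median −0.46). The part of the phloem in the AKT2/3 values was not tested. In whole leaves, fewer cells of a type and less RNA per cell cannot be told apart.

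Outward potassium channels included the one up-regulated channel. SKOR releases potassium into the xylem in *Arabidopsis* roots. The SKOR unigene c47019_g2_i1 had 13.9, 17.7 and 5.61 TMM CPM in overexpression and 3.94, 5.21 and 2.60 TMM CPM in mock libraries. The groups did not overlap, although overexpression replicate 3 lay close to mock replicate 2, and the log2 fold change was 1.65 ± 0.41 (edgeR, adjusted p = 0.049). Leaving out either of overexpression replicates 1 and 2 or mock replicates 1 and 3 ended the call, with adjusted p between 0.137 and 0.177. A second fragment of the same assembly component, c47019_g1_i1, had 3.41, 5.57 and 1.48 TMM CPM in overexpression and 0.803, 2.16 and 1.44 TMM CPM in mock libraries, and these overlap. The most abundant SKOR unigene, c98599_g2_i8, had 84.3, 75.8 and 90.4 TMM CPM in overexpression and 178, 84.2 and 131 TMM CPM in mock libraries, so the unigenes named SKOR did not move together (log2 fold change −0.65 ± 0.25; edgeR, adjusted p = 0.188).

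The xylem list was 43 laccase unigenes, since none matched xylem cysteine proteinases or VASCULAR-RELATED NAC-DOMAIN proteins. Among 13 tested, 2 were up-regulated and 0 down-regulated (15.4%, against 4.59% of all tested unigenes), and 8 had a negative log2 fold change (median −0.07). Both calls were named Laccase-14, and 1 of them (c49898_g1_i2) had 1.11, 1.68 and 1.33 TMM CPM in overexpression and 0.146, 0.0745 and 0 TMM CPM in mock libraries. The list had a sum of 218 to 328 TMM CPM in overexpression and 137 to 219 TMM CPM in mock libraries. Its part in the SKOR value was not tested. The two-pore channels, which sit mainly in the vacuole membrane, had 4 tested members. Neither edgeR, DESeq2 nor limma-voom called any, and 0 had an unadjusted p under 0.05. The potassium channel beta subunit (c93612_g3_i1), the most abundant member of the family, had 87.2 ± 4.26 FPKM in overexpression and 75.6 ± 12.6 FPKM in mock libraries (SD, n = 3 each).

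**Figure D3:**
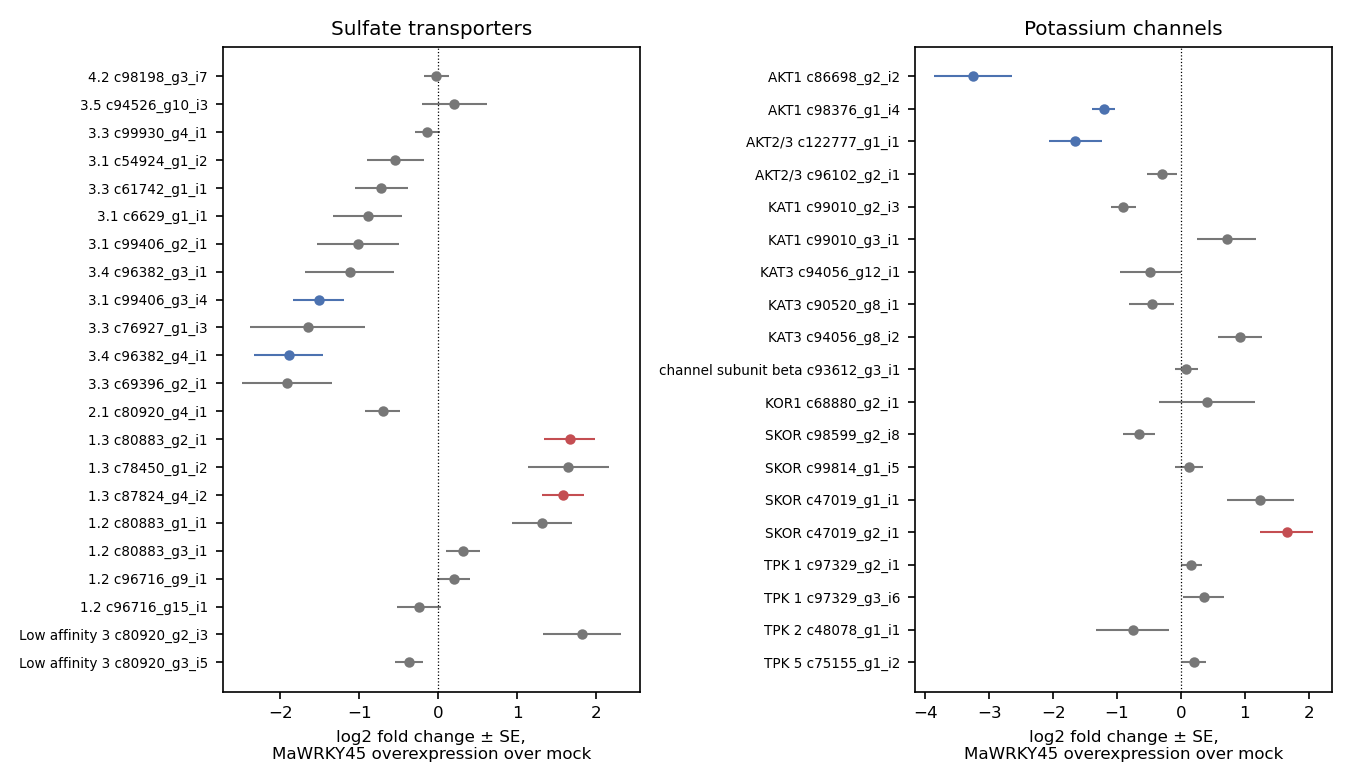
Log2 fold change with its SE (horizontal bars) for the 22 tested sulfate transporters on the left and the 19 tested potassium channels on the right, with the unigene beside each name; red marks members called higher in overexpression, blue members called lower and grey those not called. In the left panel 6 of 7 group 1 transporters lie right of 0 and 10 of 11 group 3 transporters left of it.

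Carriers of the KUP/HAK potassium transporter family take up potassium with high affinity or move it within the cell. Of 42 members 20 were tested and 14 of these had a negative log2 fold change. Potassium transporter 8 (c99666_g5_i1) was the one called. It had 20.5, 17.5 and 29.1 TMM CPM in overexpression and 81.3, 110 and 51.5 TMM CPM in mock libraries. Every overexpression library lay below every mock library, and the log2 fold change was −1.86 ± 0.29 (edgeR, adjusted p = 0.00702). With AKT1 c98376_g1_i4 it was 1 of the 2 members called without each library in turn. The 3 further members of its assembly component matched potassium transporters 6 and 8, and the component summed to 51.2, 47.2 and 60.3 TMM CPM in overexpression and 102, 158 and 72.4 TMM CPM in mock libraries, still without overlap.

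The 2 most abundant potassium transporters were not called. Potassium transporter 4 (c98635_g4_i2) had 95.6, 115 and 102 TMM CPM in overexpression and 97.5, 152 and 113 TMM CPM in mock libraries, which overlap. Potassium transporter 12 (c133898_g1_i1) had 60.1, 52.2 and 67.1 TMM CPM in overexpression and 76.3, 111 and 96.8 TMM CPM in mock libraries. It was lower without overlap, but its log2 fold change of −0.66 ± 0.19 did not pass (edgeR, adjusted p = 0.0817). Summed over all 42 members the family had 381, 391 and 391 TMM CPM in overexpression and 446, 646 and 464 TMM CPM in mock libraries. The overexpression libraries were nearly equal in this sum and lay below each mock library. Mock replicate 2 held the highest value for 12 of the 20 tested members, and without it the median log2 fold change of the family was 0.05, against −0.23 with all libraries.

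Tested sulfate transporters of group 1 and group 3 had medians of opposite sign, a difference that was not tested. Group 1 carriers, named 1.2 and 1.3, take up sulfate with high affinity or load it into the phloem in *Arabidopsis*, and group 3 carriers include transporters of the chloroplast envelope. Of 14 group 1 members 7 were tested, 6 had a positive log2 fold change and 2 were called up-regulated (median 1.31), but 3 of the 7 belong to the component c80883 and 2 to c96716 and may not be separate genes. Of 30 group 3 members 11 were tested, 10 had a negative log2 fold change and 2 were called down-regulated (median −1.02). Over all tested unigenes 48.9% had a positive log2 fold change. The sum over group 3 was 99.8, 107 and 111 TMM CPM in overexpression and 191, 156 and 203 TMM CPM in mock libraries, and these did not overlap. The sum over group 1 was 433, 458 and 410 TMM CPM in overexpression and 371, 275 and 446 TMM CPM in mock libraries, and these overlap. The most abundant unigene of the group, 1.2 c96716_g9_i1, was at 271, 280 and 266 TMM CPM in overexpression and 252, 175 and 287 TMM CPM in mock libraries. The next by FPKM, 1.2 c96716_g15_i1, had 32.5, 37.6 and 32.01 TMM CPM in overexpression and 24.8, 37.01 and 59.3 TMM CPM in mock libraries, and these overlap (log2 fold change −0.24 ± 0.28; edgeR, adjusted p = 0.715).

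The sulfate transporter 1.3 unigene c87824_g4_i2 had 20.3, 24.1 and 12.6 TMM CPM in overexpression and 5.84, 6.11 and 7.09 TMM CPM in mock libraries. Each overexpression library was above each mock library (log2 fold change 1.58 ± 0.26; edgeR, adjusted p = 0.00884), and the call was lost without mock replicate 1 alone (adjusted p = 0.0571). A second 1.3 unigene, c80883_g2_i1, had 6.89, 13.6 and 8.48 TMM CPM in overexpression and 3.58, 3.28 and 2.25 TMM CPM in mock libraries, again without overlap (log2 fold change 1.66 ± 0.33; edgeR, adjusted p = 0.0177). Its call was lost without overexpression replicate 2, mock replicate 1 or mock replicate 3 (adjusted p between 0.0602 and 0.075). The third tested 1.3 unigene, c78450_g1_i2, had 1.74, 4.10 and 2.51 TMM CPM in overexpression and 0.438, 0.745 and 1.53 TMM CPM in mock libraries, did not overlap and missed the threshold (edgeR, adjusted p = 0.0995). All 3 tested unigenes named 1.3 were therefore above their mock values, with 2 of them called.

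In group 3, sulfate transporter 3.1 (c99406_g3_i4) had 17.2, 14.5 and 37.8 TMM CPM in overexpression and 67.6, 59.3 and 71.8 TMM CPM in mock libraries. Overexpression replicate 3 was the highest of its group but still below the mock libraries (log2 fold change −1.52 ± 0.32; edgeR, adjusted p = 0.0252). Sulfate transporter 3.4 (c96382_g4_i1) had 2.77, 2.93 and 6.42 TMM CPM in overexpression and 21.2, 7.22 and 16.8 TMM CPM in mock libraries. Its groups came close but did not overlap (log2 fold change −1.89 ± 0.44; edgeR, adjusted p = 0.0354). For both, the call was lost without overexpression replicate 1 or 2 or mock replicate 1 or 3, with adjusted p between 0.0679 and 0.104 for 3.1 and between 0.0889 and 0.14 for 3.4. The only group 3 member above 0 was 3.5 (c94526_g10_i3), with 17.1, 20.1 and 5.38 TMM CPM in overexpression and 9.27, 15.9 and 11.9 TMM CPM in mock libraries, which overlap.

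Low affinity sulfate transporter 3, a name from the legume *Stylosanthes*, was borne by 2 tested unigenes. The lower one, c80920_g2_i3, had 29.3, 21.3 and 17.6 TMM CPM in overexpression and 4.09, 12.7 and 2.42 TMM CPM in mock libraries. It did not overlap but missed the threshold (log2 fold change 1.82 ± 0.49; edgeR, adjusted p = 0.0635), and DESeq2 (adjusted p = 0.0015) and limma-voom (adjusted p = 0.0337) called it. It was also called without mock replicate 2, at 2.78, and without overexpression replicate 3, at 1.99. The more abundant c80920_g3_i5 had 98.2, 88.3 and 99.7 TMM CPM in overexpression and 118, 145 and 107 TMM CPM in mock libraries. Both belong to 1 assembly component, which also holds a sulfate transporter 2.1 unigene and summed to 155, 127 and 135 TMM CPM in overexpression and 155, 190 and 146 TMM CPM in mock libraries.

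Malate transporters of the ALMT family are anion channels of the plasma membrane or the vacuole. The 5 tested members included the second largest up-regulation among the transporters and 4 members with a negative log2 fold change. ALMT2 (c63510_g1_i1) had 1.27, 1.47 and 2.58 TMM CPM in overexpression and 0.0730, 0.298 and 0.0898 TMM CPM in mock libraries. It was nearly absent from mock leaves (log2 fold change 3.43 ± 0.61; edgeR, adjusted p = 0.0121) and passed the count filter through the overexpression libraries alone. ALMT14 (c10571_g1_i1), which in *Arabidopsis* belongs to the same clade as the guard cell anion channel ALMT12, had 4.20, 3.52 and 7.89 TMM CPM in overexpression and 15.6, 18.5 and 17.3 TMM CPM in mock libraries. It was lower without overlap (log2 fold change −1.72 ± 0.30; edgeR, adjusted p = 0.0113). The ALMT2 call was lost without mock replicate 1 (adjusted p = 0.0746) and the ALMT14 call without overexpression replicate 1 (adjusted p = 0.0544).

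ALMT9, a chloride and malate channel of the vacuole in *Arabidopsis*, lay just outside the threshold. The unigene c84107_g1_i1 had 4.28, 2.05 and 5.97 TMM CPM in overexpression and 10.2, 13.2 and 9.25 TMM CPM in mock libraries, without overlap (log2 fold change −1.40 ± 0.36; edgeR, adjusted p = 0.051). DESeq2 and limma-voom called it (adjusted p = 0.00721 and 0.0439). ALMT4 (c96674_g1_i2), the most abundant, had 40.5, 41.8 and 38.8 TMM CPM in overexpression and 51.8, 61.5 and 61.6 TMM CPM in mock libraries (edgeR, adjusted p = 0.0963). The sum over all 9 ALMT members was 51.7, 51.5 and 57.5 TMM CPM in overexpression and 79.2, 97.3 and 91.5 TMM CPM in mock libraries, which did not overlap. The summed level of the guard cell markers overlapped between the groups, while 1 of them was down-regulated, as given with the potassium channels. Most of that sum came from unigenes named HT1, so it says little about the other guard cell markers.

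S-type anion channels release chloride and nitrate. The 3 tested members behaved differently. SLAH3 (c98789_g2_i1) had 43.1, 51.3 and 46.1 TMM CPM in overexpression and 6.94, 37.5 and 6.195 TMM CPM in mock libraries. Mock replicate 2 lay just below the overexpression libraries and the other mock libraries far below them, and the log2 fold change of 1.47 ± 0.57 did not pass (edgeR, adjusted p = 0.187). Without mock replicate 2 it was 2.82 (adjusted p = 7.28e-05). SLAH2 (c93657_g2_i1) had 31.8, 32.7 and 32.3 TMM CPM in overexpression and 29.6, 28.9 and 28.6 TMM CPM in mock libraries, a small difference without overlap (log2 fold change 0.15 ± 0.16; edgeR, adjusted p = 0.682). SLAC1 (c63228_g1_i1), the guard cell anion channel of *Arabidopsis*, had 9.75, 8.13 and 12.8 TMM CPM in overexpression and 11.6, 21.2 and 14.7 TMM CPM in mock libraries, which overlap (edgeR, adjusted p = 0.242).

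**Figure D4:**
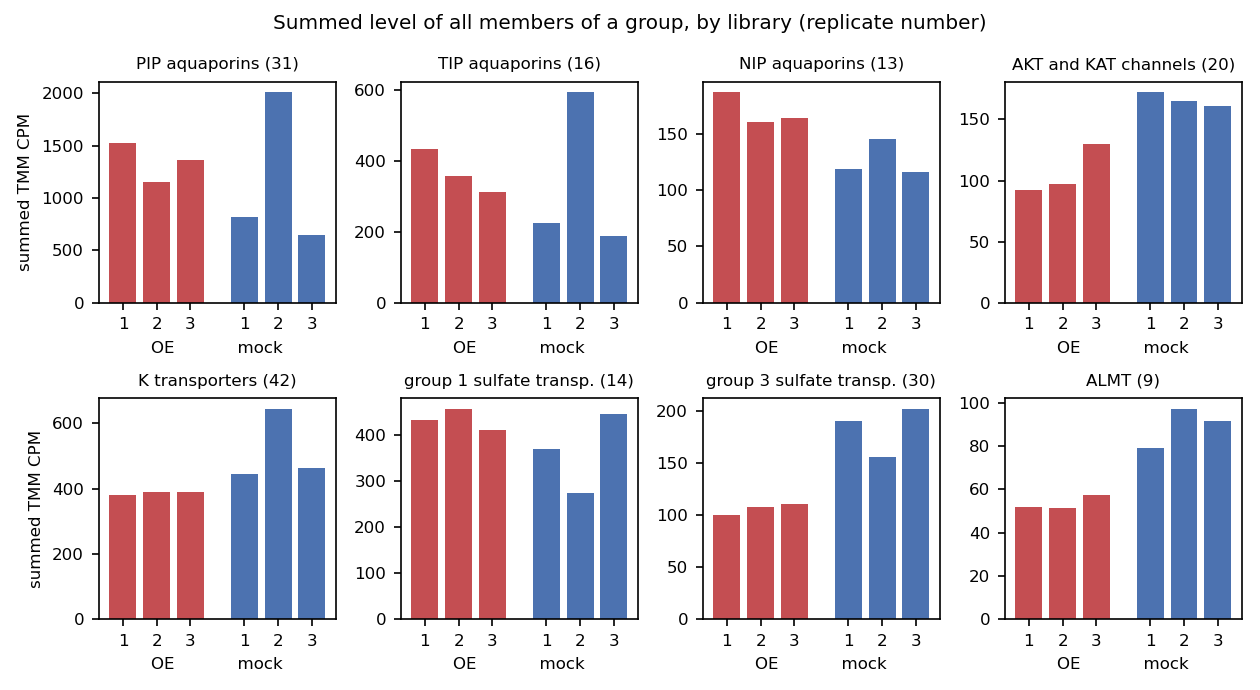
Summed TMM CPM (vertical axis, starting at 0) of all members of 8 groups, with the number of members in brackets, 1 bar for each library by replicate number, overexpression (OE) in red on the left and mock in blue on the right. The bars of the AKT and KAT channels, the potassium transporters, the group 3 sulfate transporters and the ALMT members are lower in each overexpression library than in each mock library, those of the NIP aquaporins are higher, and mock replicate 2 has the highest PIP and TIP bars.

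The aquaporins were the family with the most tested members. Of 64 members 36 were tested, and 21 had a positive and 15 a negative log2 fold change, where 48.9% of all tested unigenes were positive. In edgeR 0 were called up-regulated and 1 was called down-regulated (2.78%, against 4.59% of all tested unigenes called). Of the 36, 9 had an unadjusted p under 0.05 in edgeR, where 18.9% of all tested unigenes did. DESeq2 called 1 up-regulated and 2 down-regulated members, and limma-voom called 0. The median log2 fold change was 0.26, and it lay between −0.11 and 0.44 when each library was left out in turn. Mock replicate 2 held the highest value for 18 of the 36 and mock replicate 3 the lowest for 17. The summed level was 2275, 1787 and 1967 TMM CPM in overexpression and 1254, 2861 and 1051 TMM CPM in mock libraries. The 3 overexpression sums lay between mock replicate 2 and the other mock libraries. The chlorophyll a-b binding and Rubisco markers were also highest in mock replicate 2, and their part in the aquaporin values was not tested.

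Plasma membrane intrinsic proteins (PIPs) are the water channels of the cell surface. PIP1-2 (c89425_g4_i1) had 27.1, 23.2 and 21.7 TMM CPM in overexpression and 40.4, 92.0 and 39.3 TMM CPM in mock libraries. It was lower in overexpression without overlap (log2 fold change −1.25 ± 0.31; edgeR, adjusted p = 0.0488). The call was lost without each library except mock replicate 3, with adjusted p between 0.0703 and 0.157 in 4 of these fits, and without mock replicate 2 the log2 fold change was −0.74, short of the fold. PIP2-1 and PIP2-4 unigenes share its assembly component, and the component summed to 90.0, 87.2 and 73.5 TMM CPM in overexpression and 87.9, 183 and 88.9 TMM CPM in mock libraries, which overlap.

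The abundant PIPs depended on mock replicate 2. The pTOM75 unigene c91698_g1_i2 had 676, 500 and 474 TMM CPM in overexpression and 295, 866 and 233 TMM CPM in mock libraries. PIP2-2 (c86068_g1_i1) had 531, 402 and 629 TMM CPM in overexpression and 282, 658 and 198 TMM CPM in mock libraries. Both overlapped and did not pass (edgeR, adjusted p = 0.827 and 0.603), and without mock replicate 2 both were called up-regulated, at log2 fold changes of 1.05 and 1.11 (adjusted p = 0.0178 and 0.0215). Without mock replicate 1 or 3 the log2 fold change of pTOM75 was −0.01 and −0.08.

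Tonoplast intrinsic proteins (TIPs) carry water across the vacuole membrane. TIP2-1 (c90899_g7_i1) had 188, 131 and 47.7 TMM CPM in overexpression and 9.13, 136 and 8.08 TMM CPM in mock libraries. The groups overlapped (log2 fold change 1.26 ± 0.92; edgeR, adjusted p = 0.534), and without mock replicate 2 the value was 3.82 (adjusted p = 0.00164). TIP1-1 (c90899_g8_i1), the most abundant TIP, had 86.4, 83.7 and 97.9 TMM CPM in overexpression and 108, 283 and 70.5 TMM CPM in mock libraries. TIP4-1 (c160156_g1_i1) had 113, 99.8 and 129 TMM CPM in overexpression and 75.9, 101 and 80.5 TMM CPM in mock libraries. Neither passed (edgeR, adjusted p = 0.354 and 0.269).

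Nodulin 26-like intrinsic proteins (NIPs) carry boric acid, silicic acid and glycerol. Their sum over 13 members was 187, 161 and 164 TMM CPM in overexpression and 119, 145 and 116 TMM CPM in mock libraries, higher in overexpression without overlap. NIP6-1 (c80813_g1_i1), which in *Arabidopsis* moves boric acid in shoot nodes, had 12.8, 9.23 and 10.1 TMM CPM in overexpression and 4.67, 6.63 and 3.14 TMM CPM in mock libraries. It did not overlap and just missed the threshold (log2 fold change 1.15 ± 0.30; edgeR, adjusted p = 0.0555), and DESeq2 called it (adjusted p = 0.0216). The other NIP6-1 unigene, c90299_g8_i2, had 3.57, 2.86 and 4.43 TMM CPM in overexpression and 3.51, 4.84 and 3.14 TMM CPM in mock libraries. NIP3-1 (c93444_g5_i1), the most abundant NIP, had 110, 85.2 and 96.5 TMM CPM in overexpression and 67.4, 80.6 and 61.8 TMM CPM in mock libraries, without overlap (edgeR, adjusted p = 0.181). Small basic intrinsic proteins (SIPs), aquaporins of internal membranes, summed to 124, 110 and 126 TMM CPM in overexpression and 93.9, 99.9 and 100.3 TMM CPM in mock libraries, and none of the 3 tested was called by edgeR, DESeq2 or limma-voom (1 had an unadjusted p under 0.05 in edgeR).

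**Figure D5:**
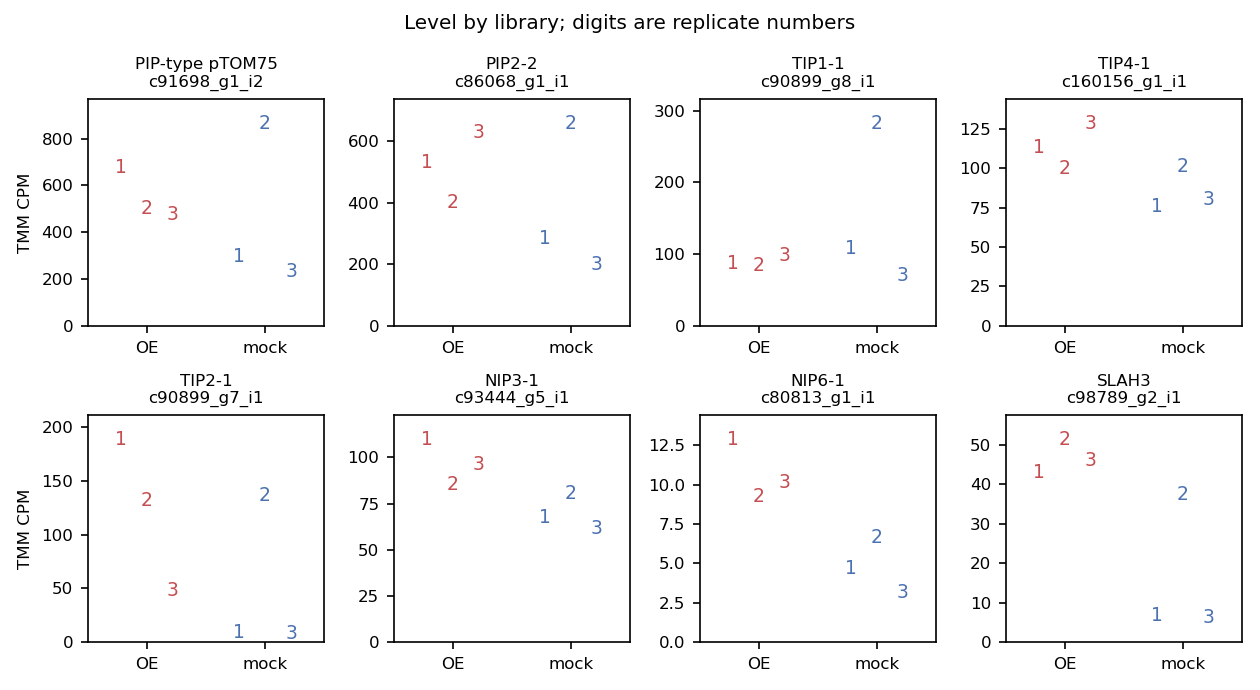
TMM CPM (vertical axes, starting at 0) of 7 aquaporins and the anion channel SLAH3, overexpression (OE, red) left and mock (blue) right, with the replicate number drawn as the point and the numbers set side by side. In the panels of pTOM75, PIP2-2, TIP1-1, TIP2-1 and SLAH3 mock replicate 2 lies far above mock replicates 1 and 3, while NIP6-1 and NIP3-1 do not overlap between the groups.

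Cation/H(+) antiporters of the CHX type exchange potassium for protons in internal membranes and at the plasma membrane. Of 38 members 7 were tested. CHX18 (c54440_g1_i1) showed the largest up-regulation among all tested members, with 0.872, 2.56 and 3.25 TMM CPM in overexpression and 0.0730, 0.223 and 0.180 TMM CPM in mock libraries. The groups did not overlap (log2 fold change 3.75 ± 0.67; edgeR, adjusted p = 0.0119), and it passed the count filter through the overexpression libraries alone. The call was lost without mock replicate 1 (adjusted p = 0.0746) and in limma-voom (adjusted p = 0.0611). CHX18 and ALMT2 were also listed by the study from these same libraries, so their direction here is not independent of that choice. The 2 other tested unigenes named CHX18 were not called, and the abundant one, c90368_g1_i2, had 25.1, 13.6 and 28.3 TMM CPM in overexpression and 13.95, 45.8 and 23.8 TMM CPM in mock libraries. CHX20 (c84592_g1_i2), a guard cell antiporter of *Arabidopsis*, varied widely within both groups, with 0.792, 0.147 and 16.7 TMM CPM in overexpression and 7.52, 1.56 and 13.1 TMM CPM in mock libraries. It was not called (edgeR, adjusted p = 0.921), but without overexpression replicate 3 it was called down-regulated, at −3.97 (adjusted p = 0.0268). CHX3 (c90895_g1_i3) had 17.98, 23.6 and 14.8 TMM CPM in overexpression and 13.95, 17.95 and 18.05 TMM CPM in mock libraries.

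Metal transporters of the NRAMP family carry manganese, iron and other divalent metals. Of 5 tested members Nramp5 (c7174_g1_i2), the manganese and cadmium uptake carrier of rice roots, was called up-regulated, with 1.98, 2.197 and 0.959 TMM CPM in overexpression and 0.511, 0.372 and 0.359 TMM CPM in mock libraries. The groups did not overlap (log2 fold change 2.01 ± 0.48; edgeR, adjusted p = 0.0422), it passed the count filter through the overexpression libraries alone, and its call was kept only without overexpression replicate 3, with adjusted p between 0.0774 and 0.184 without each of the other 5 libraries. DESeq2 and limma-voom did not call it (adjusted p = 0.0744 and 0.0931). The abundant members were Nramp6 (c54014_g1_i1), with 37.7, 27.2 and 56.5 TMM CPM in overexpression and 63.4, 69.9 and 61.6 TMM CPM in mock libraries (edgeR, adjusted p = 0.159), and Nramp3 (c96827_g1_i5), an exporter of iron and manganese from the vacuole in *Arabidopsis*, with 31.6, 33.5 and 45.1 TMM CPM in overexpression and 41.0, 48.9 and 41.3 TMM CPM in mock libraries.

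Phosphate transporters comprised the PHT1 uptake carriers, the PHO1 exporters that load phosphate into the xylem, the chloroplast carrier PHT2-1 and the glycerol-3-phosphate transporters. One PHT1-4 unigene, c91813_g2_i1, had 83.1, 73.7 and 99.4 TMM CPM in overexpression and 54.5, 34.1 and 47.7 TMM CPM in mock libraries. It was higher without overlap at an adjusted p of 0.0368 in edgeR, but its log2 fold change of 0.91 ± 0.21 missed the fold of 2. The far more abundant PHT1-4 unigene, c95473_g1_i2, had 958, 842 and 675 TMM CPM in overexpression and 582, 657 and 825 TMM CPM in mock libraries, which overlap (edgeR, adjusted p = 0.615). PHO1 homolog 3 (c100339_g7_i6) had 300.3, 266 and 326 TMM CPM in overexpression and 400, 324 and 538 TMM CPM in mock libraries, and these overlap (edgeR, adjusted p = 0.264). The 6 glycerol-3-phosphate transporters all had negative log2 fold changes, none was called (edgeR, DESeq2 and limma-voom; 1 with an unadjusted p under 0.05), and their sum was 79.8, 105 and 94.1 TMM CPM in overexpression and 146, 118 and 154 TMM CPM in mock libraries.

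Zinc transporters of the ZIP family import zinc into the cytosol. Both zinc transporter 8 (c99652_g7_i3) and zinc transporter 1 (c92112_g2_i3) lay just outside the threshold. The first had 6.89, 5.42 and 15.3 TMM CPM in overexpression and 23.1, 22.6 and 19.6 TMM CPM in mock libraries, without overlap (log2 fold change −1.24 ± 0.34; edgeR, adjusted p = 0.068). For the second the values were 7.69, 7.76 and 13.3 TMM CPM in overexpression and 25.7, 12.2 and 29.99 TMM CPM in mock libraries, which overlap (log2 fold change −1.24 ± 0.34; edgeR, adjusted p = 0.0702). DESeq2 called both (adjusted p = 0.00995 and 0.0119). The abundant zinc transporters 11 (c108384_g1_i1; 197, 330 and 184 TMM CPM in overexpression and 251, 146 and 384 TMM CPM in mock libraries) and 1 (c79086_g1_i1; 152, 247 and 109 TMM CPM in overexpression and 102, 43.3 and 140 TMM CPM in mock libraries) had overlapping groups with a wide spread.

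The plasma membrane ATPases energize the other carriers. PMA4 (c99257_g1_i1) had 1150, 1007 and 1071 TMM CPM in overexpression and 956, 1503 and 1113 TMM CPM in mock libraries. PMA1 (c100646_g3_i2) had 265, 263 and 281 TMM CPM in overexpression and 277, 442 and 412 TMM CPM in mock libraries. Both overlapped between the groups, and their log2 fold changes of −0.15 ± 0.24 and −0.48 ± 0.21 did not pass (edgeR, adjusted p = 0.811 and 0.256).

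Members outside the test held few counts. The 167 untested members had at most 70 counts over the 6 libraries, and 112 of them were shorter than 500 bases, against 13 of the 152 tested. Some were at 0 in every overexpression library, and the 3 of these with the most mock counts are described here. The unigene for a NIP-type aquaporin (c102111_g1_i1) had 0 counts in all overexpression libraries and 20, 6 and 20 counts in mock replicates 1, 2 and 3. Set against 3 counts over the overexpression group, it was at least 16-fold lower, and DESeq2 called it (adjusted p = 0.000604). A PMA4 unigene (c86128_g1_i1) had 0 counts in overexpression and 14, 6 and 2 counts in mock libraries, at least 7.64-fold lower (DESeq2, adjusted p = 0.0445), and an AKT1 unigene (c32531_g1_i2) had 0 counts in overexpression and 2, 9 and 6 counts in mock libraries, at least 5.90-fold lower. These bounds cover counting error only. All 3 were picked out after their values were seen.

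The 319 members belonged to 239 assembly components and 135 distinct UniProt names, and *N. benthamiana* is an allotetraploid, so several unigenes can be fragments or near-identical copies of 1 gene between which the counting may have divided reads. Summed over their components, the calls of CHX18, AKT1 c86698_g2_i2, sulfate transporters 3.1 and 3.4 and potassium transporter 8 kept groups that did not overlap. Except for potassium transporter 8, the called unigene itself made up most of the sum. For those components the separation largely repeats the call and is no separate support for it. The component of sulfate transporter 1.3 c80883_g2_i1, which also holds the abundant unigene 1.2 c80883_g3_i1, summed to 105, 110 and 95.7 TMM CPM in overexpression and 87.9, 55.1 and 90.0 TMM CPM in mock libraries, also without overlap and with a log2 ratio of means of 0.42. The components of PIP1-2 and of SKOR c47019_g2_i1 overlapped, and that of SKOR had 17.4, 23.2 and 7.08 TMM CPM in overexpression and 4.75, 7.37 and 4.04 TMM CPM in mock libraries.

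Other ion transport genes, taken as 267 unigenes by further protein names, had 172 tested members, of which 4 were up-regulated and 5 were down-regulated (5.23%, against 4.59% of all tested unigenes). The vacuolar cation/proton exchanger 3 (c94029_g1_i1), which loads calcium and other cations into the vacuole, had 8.95, 9.74 and 10.8 TMM CPM in overexpression and 120, 219 and 133 TMM CPM in mock libraries. No library of one group came near the other (log2 fold change −4.00 ± 0.27; edgeR, adjusted p = 0.000281). Among 18 tested cyclic nucleotide-gated channels, cation channels of calcium signalling, 3 were down-regulated and 0 up-regulated: CNGC18 (c93919_g1_i2) and 2 unigenes named CNGC4. Of 17 tested calcium-transporting ATPases, which pump calcium out of the cytosol, 3 were up-regulated and 0 down-regulated. A further 1 was lower at an adjusted p under 0.05 (edgeR) but short of the fold of 2. Of the 3 called, 2 matched the plasma membrane type ACA13, the higher one (c135493_g1_i1) with 82.6, 125 and 117 TMM CPM in overexpression and 14.8, 32.6 and 25.3 TMM CPM in mock libraries. Over all tested unigenes 1.92% were up-regulated and 2.67% down-regulated. The channels and the ATPases were picked from the list after their values were seen. Copper transporter 2 (c135182_g1_i1) was up-regulated with 72.3, 66.9 and 51.9 TMM CPM in overexpression and 19.9, 17.2 and 24.4 TMM CPM in mock libraries, and the G1 subunit of the vacuolar proton pump (c92739_g1_i1) was down-regulated with 4.91, 4.54 and 7.01 TMM CPM in overexpression and 26.4, 22.04 and 19.7 TMM CPM in mock libraries (edgeR, adjusted p = 0.00291 and 0.00221).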

How the data were processed

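RNA of 6 leaf libraries was analysed, 3 of *MaWRKY45* overexpression and 3 of mock infiltration. According to the study's methods, the authors cleaned the reads (Trimmomatic), built the assembly de novo (Trinity), collapsed near-identical contigs (CD-HIT-EST), aligned the reads to it (Bowtie2) and estimated abundance (RSEM). The deposited raw counts are whole reads per unigene, not normalized. The expected counts deposited for each library equalled them in all 167935 unigenes. The FPKM values deposited beside them, scaled by the authors to length and depth, were used for levels between unigenes. Whether the counting used strand was not given in the sources used here.

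All unigenes were fitted together in R 4.3.3 with edgeR 4.0.16 (filterByExpr, with a minimum of 0.763 CPM in 3 libraries, TMM, glmQLFit, glmQLFTest, no covariate), with Benjamini-Hochberg adjustment over 37201 unigenes and a fold of 2. Each SE comes from the F statistic. TMM factors were 1.02 to 1.08 in overexpression and 0.939 to 0.980 in mock libraries, and the biological coefficient of variation was 0.266. Total counts of 12031310 to 14285138 set the precision, and floors of 3 counts cover counting error only. The scripts were tested on simulated data. Alternatives were DESeq2 1.42.0, limma-voom (limma 3.58.1), glmTreat, other scalings, filters and thresholds, a narrower membership, a replicate block and each library left out. The text names every called member, the 2 members the study listed and the 2 most abundant tested members of each family; other members were named after their values were seen. Members and lists were chosen with earlier results of these data known. Nothing in the labels ties replicate numbers to a shared day or batch. No columns of the authors' own comparisons were used.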

Additional observations from a re-analysis of the deposited data

How the results depend on the processing

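The 6 up-regulated and 8 down-regulated members depended on the processing. No expression filter gave 13 and 15, DESeq2 7 and 13, library size alone 8 and 5, limma-voom 4 and 7, DESeq2's size factors 6 and 9, and glmTreat against a fold of 2 gave 0 and 0, where 17 members had an unadjusted p under 0.05. When each library was left out in turn, up-regulated members ranged from 0 to 13 and down-regulated members from 3 to 14, with 0 and 3 without mock replicate 1 and 13 and 10 without mock replicate 2. AKT1 c98376_g1_i4 and potassium transporter 8 were called in all 6 of these fits. A replicate block was tried although same-numbered libraries did not deviate together (r = −0.112, −0.131 and −0.093). Between libraries of unlike number r ran from −0.132 to 0.250. The block called 7 and 8 members, 12 of them shared with the fit without it. With the block PIP1-2 (adjusted p = 0.0657) and Nramp5 (0.0741) were not called, and SLAH3 (0.0377), low affinity sulfate transporter 3 c80920_g2_i3 (0.0248) and zinc transporter 1 c92112_g2_i3 (0.0427) were.

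Family medians also moved. Without a filter they were −0.38 in S-type anion channels, −0.19 in phosphate transporters, −0.59 in plasma membrane ATPases and 0.22 in sulfate transporters, and with DESeq2 −0.37, −0.19, −0.60 and 0.23, where more members enter the fit. The phosphate transporter median was −0.0044 with library size alone, −0.0615 with at least 1 count in all 6 libraries and −0.0841 with at least 1 CPM in 3 libraries, and the plasma membrane ATPase median was −0.60 with at least 1 count in all 6. With each library left out the medians ranged from −1.47 to −0.50 in malate transporters, −0.52 to 0.23 in cation/H(+) antiporters, −0.32 to 0.0682 in phosphate transporters, −0.67 to −0.25 in plasma membrane ATPases and −0.31 to 0.0454 in potassium transporters. The cause was not tested. Leaving out 1 library turned the sign of 7 named members that were not called. Their log2 fold changes ranged from −0.0071 to 0.3274 for CHX3 (c90895_g1_i3), −0.4424 to 0.2451 for zinc transporter 11 (also 0.0174), −0.0846 to 1.0539 for pTOM75 c91698_g1_i2 (also −0.0104), −0.6534 to 0.2401 for CHX18 c90368_g1_i2, −0.2928 to 0.0509 for PMA4, −0.0263 to 0.2237 for the channel beta subunit and −0.5113 to 0.1319 for sulfate transporter 1.2 c96716_g15_i1. With 3 libraries a group, differences near a fold of 2 in members of few counts were not detectable with certainty.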

Other observations

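Regulators of ion transport, taken as 281 unigenes by name, were changed in both directions. Of 197 tested, 8 were up-regulated and 9 were down-regulated (8.63%, against 4.59% of all tested unigenes). Abscisic acid receptors of the PYL type, which inhibit protein phosphatases 2C once they bind the hormone, had 2 up-regulated and 0 down-regulated members among 15 tested. Over all tested unigenes 1.92% were up-regulated and 2.67% down-regulated. PYL4 (c90892_g1_i1) had 46.9, 44.96 and 17.9 TMM CPM in overexpression and 2.04, 13.03 and 4.31 TMM CPM in mock libraries, without overlap (log2 fold change 2.49 ± 0.58; edgeR, adjusted p = 0.0367). Protein phosphatases 2C had 4 up-regulated and 7 down-regulated members among 101 tested (10.9%, against 4.59% of all tested unigenes). Which of them the receptors inhibit was not tested. The largest changes among those called were rises, at log2 fold changes of 3.28 for 2C 65 (c95693_g2_i4) and 3.22 for 2C 72 (c83597_g1_i1) (edgeR, adjusted p = 0.00388 and 0.00317). Protein phosphatase 2C 77 (c98387_g1_i6), ABI2 in *Arabidopsis*, had 33.3, 34.2 and 52.0 TMM CPM in overexpression and 156, 105 and 109 TMM CPM in mock libraries (log2 fold change −1.63 ± 0.24; edgeR, adjusted p = 0.00534). Protein phosphatase 2C 37 (c94071_g1_i3) had 3.01, 4.47 and 15.5 TMM CPM in overexpression and 64.5, 25.9 and 30.3 TMM CPM in mock libraries, also without overlap (edgeR, adjusted p = 0.0381).

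Calcineurin B-like calcium sensors act through CBL-interacting kinases, and pairs of them activate AKT1 in *Arabidopsis*. Calcineurin B-like protein 7 (c91544_g6_i1) was up-regulated with 15.7, 19.0 and 20.9 TMM CPM in overexpression and 4.53, 3.13 and 4.94 TMM CPM in mock libraries (log2 fold change 2.14 ± 0.25; edgeR, adjusted p = 0.00215). It was the only one called of 12 tested. CBL-interacting kinases had 0 up-regulated and 2 down-regulated members among 27 tested, both named kinase 25, and 21 of the 27 had a negative log2 fold change. Over all tested unigenes 2.67% were down-regulated, 1.92% were up-regulated and 48.9% had a positive log2 fold change.

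Unigenes whose protein or nucleotide match named *Escherichia coli* (215) summed to 299.7, 216.5 and 251.8 TMM CPM in overexpression and 42.4, 43.04 and 29.3 TMM CPM in mock libraries. Of 10 tested, 8 were up-regulated (80%, against 1.92% of all tested unigenes). Those whose protein or nucleotide match named *Agrobacterium* (56) summed to 22.4, 23.8 and 20.7 TMM CPM in overexpression and 24.6, 32.3 and 14.6 TMM CPM in mock libraries. Of 3 tested, 1 was up-regulated (33.3%, against 1.92% of all tested unigenes). A list taken by parts of yeast names in protein or nucleotide matches (334) summed to 46.03, 15.7 and 28.03 TMM CPM in overexpression and 100.5, 50.3 and 34.4 TMM CPM in mock libraries. Of 8 tested, 1 was down-regulated (12.5%, against 2.67% of all tested unigenes). That name search was not limited to yeast, so its sum is not a measure of yeast alone. The part of these lists in the transporter values was not tested.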
